A study of Mus musculus with 11 samples.

Results

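The major histocompatibility complex (MHC) genes of the mouse, named H2, were followed in cells sorted from 14-day-old mice: 3 libraries of thymic DN3 cells, which are CD4 and CD8 double negative T cell precursors, 3 libraries of ZsGreen-positive lung group 2 innate lymphoid cells (ILC2) and 5 libraries of ZsGreen-negative lung ILC2. All mice had the genotype Cd3giCreRosa26stopZsGreen and no treatment. In such mice Cre is driven by Cd3g and switches on ZsGreen for good, which marks cells with present or past Cd3g expression. Whether the DN3 cells were selected by ZsGreen is not given in the sources used here. The strain is not given either, which matters because H2 genes differ between strains, and the labels do not tie the libraries of a group to separate animals. The p-values below therefore speak of the spread between libraries, which may be technical. Members were the 48 gene entries whose symbol starts with H2- (1 symbol, H2-K2, stands on 2 entries) and 7 further genes by name, B2m, Cd74, Ciita, Nlrc5, Tap1, Tap2 and Tapbp. That made 55 of 57186 entries in the deposited table. Of these, 10 had 0 counts in all 11 libraries, 6 more stayed at or under 3 counts in every library, and 39 exceeded 3 counts in at least 1 library.

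Class I molecules, made of a heavy chain and beta-2 microglobulin, present peptides from inside the cell to CD8 T cells and are read by receptors of natural killer cells. The classical heavy chains H2-K1 and H2-D1 are joined by non-classical ones of the Q, T and M regions, among them H2-Q7, one of the genes for the Qa-2 antigen. Class II molecules are alpha-beta pairs that present peptides from outside the cell to CD4 T cells, mainly on B cells, dendritic cells and macrophages, and some ILC2 are known to carry them. Interferons raise both classes, through the activators NLRC5 for class I and CIITA for class II.

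The promoters of 5 class I genes are shown because H2-Q7 and H2-Q6 separated the ZsGreen groups, H2-K1 and H2-D1 were the most abundant heavy chains, and H2-Q2 moved against all of them in DN3 cells. Each line holds the 250 bases before the RefSeq transcription start in GRCm38.p6, read along the gene's own strand, with a stretch GGGGATTCC (the NF-kB core of the class I enhancer A) and a stretch AGTTTCACT (the core of the interferon-stimulated response element) in capitals. The windows lie at chr17:35438905-35439154, plus strand, for H2-Q7, at chr17:35424600-35424849, plus strand, for H2-Q6, at chr17:34000348-34000597, minus strand, for H2-K1, at chr17:35262844-35263093, plus strand, for H2-D1, and at chr17:35342057-35342306, plus strand, for H2-Q2.
H2-Q7: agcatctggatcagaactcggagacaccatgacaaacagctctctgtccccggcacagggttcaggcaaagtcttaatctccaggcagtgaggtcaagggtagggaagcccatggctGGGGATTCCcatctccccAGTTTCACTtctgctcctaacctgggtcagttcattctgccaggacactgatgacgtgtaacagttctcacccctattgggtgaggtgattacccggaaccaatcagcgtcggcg
H2-Q6: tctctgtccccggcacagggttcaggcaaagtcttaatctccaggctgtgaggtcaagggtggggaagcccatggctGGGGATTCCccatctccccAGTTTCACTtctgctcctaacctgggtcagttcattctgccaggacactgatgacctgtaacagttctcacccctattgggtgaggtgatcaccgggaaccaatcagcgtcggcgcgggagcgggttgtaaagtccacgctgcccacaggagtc
H2-K1: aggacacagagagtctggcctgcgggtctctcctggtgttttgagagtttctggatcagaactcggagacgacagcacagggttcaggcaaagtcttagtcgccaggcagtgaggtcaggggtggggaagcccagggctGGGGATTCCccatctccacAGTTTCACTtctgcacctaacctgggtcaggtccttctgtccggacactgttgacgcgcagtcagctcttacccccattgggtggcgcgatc
H2-D1: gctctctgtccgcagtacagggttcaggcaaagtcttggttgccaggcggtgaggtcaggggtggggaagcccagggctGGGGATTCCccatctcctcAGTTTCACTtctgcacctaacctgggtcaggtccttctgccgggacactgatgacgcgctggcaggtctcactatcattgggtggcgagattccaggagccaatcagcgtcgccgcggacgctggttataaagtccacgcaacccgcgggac
H2-Q2: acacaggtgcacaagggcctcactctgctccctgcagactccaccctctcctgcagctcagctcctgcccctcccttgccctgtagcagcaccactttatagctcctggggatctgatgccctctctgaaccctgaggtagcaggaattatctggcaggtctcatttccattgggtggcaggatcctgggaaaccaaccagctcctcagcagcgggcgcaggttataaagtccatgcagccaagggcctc

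Of the 54 member symbols, 34 had a promoter in the RefSeq table, with 37 starts. The stretch GGGGATTCC, searched on both strands, stood in the windows of 4 member symbols (H2-D1, H2-K1, H2-Q6 and H2-Q7) and in 0.213% of all 32851 promoters. AGTTTCACT stood in those of 8 member symbols (H2-D1, H2-K1, H2-Q10, H2-Q4, H2-Q6, H2-Q7, H2-T22 and H2-T3) and in 0.268% of all promoters. The H2-Q2 window held neither stretch. These are matches of letters, and no binding was measured here.

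Total counts were 5951494 to 7745062 in DN3, 5762491 to 17627469 in ZsGreen-positive and 4495260 to 14424313 in ZsGreen-negative libraries, so a single count stood for 0.0597 to 0.244 CPM, the unit in which each library's counts are brought to a common total. Levels below are CPM after scaling all 11 libraries together by trimmed means (TMM). The libraries carried the markers of their labelled cells: Rag1, the recombinase of T and B cell precursors, was at 1219.8, 1314 and 1260.4 CPM in DN3 and at or under 0.518 CPM in every lung library, and Il1rl1, the interleukin-33 receptor of ILC2, had 0 counts in DN3 and at least 2564 CPM in lung. Lung structural cell markers, such as the surfactant gene Sftpc, were read in all lung libraries. Their sum over 12 genes was 939 to 2424 CPM in ZsGreen-positive and 376 to 1039 CPM in ZsGreen-negative libraries. The labels give dates as batches: ZsGreen-positive libraries 1 and 2 and ZsGreen-negative libraries 1 to 4 share 1 date in 2024, ZsGreen-positive library 3 and ZsGreen-negative library 5 one in 2025, and the DN3 libraries a later date in 2024 of their own. Where DN3 is compared with lung, batch and tissue cannot be told apart. ZsGreen-negative library 4 stood apart in this gene family: it was the highest of the 5 ZsGreen-negative libraries for 19 of the 29 members tested (65.5%), against 20.6% of all 13771 genes tested. Results that change without it are given both ways.

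ZsGreen-positive ILC2 were set against ZsGreen-negative ILC2 to ask whether lung ILC2 with a history of Cd3g differ in these genes. The members that differed were mainly of the Q region of class I: H2-Q7, H2-Q5 and H2-Q6 were 2.11-fold, 2.00-fold and 1.77-fold higher in ZsGreen-positive ILC2, and H2-T10 of the T region was 1.41-fold higher. Of 29 members tested, these 4 rose and 0 fell at an adjusted p under 0.05 (edgeR quasi-likelihood test, Benjamini-Hochberg over 13771 genes, batch as a term). Over all genes tested the share called was 4.52%, with 2.35% higher and 2.18% lower. The classical heavy chains, the class I partners and the class II genes were not called by edgeR. At an unadjusted p under 0.05, 16 members were higher and 0 lower, and DESeq2 and limma voom also called 0 lower, with 8 and 7 called higher. Both called H2-K1 and H2-D1 beside the 4, DESeq2 added H2-Ab1 and Cd74, and limma voom added H2-T22. Over all 13771 genes DESeq2 called 388 higher and 352 lower, and limma voom 580 and 430. The median log2 fold change was 0.43 over the members tested and -0.00058 over all genes, and 25 of the 29 values were positive. Without ZsGreen-negative library 4, edgeR called 293 of 13560 genes higher and 295 lower. Of the members 11 were called higher in that fit: the 4 above and H2-K1, H2-D1, H2-Q4, H2-T22 (0.55, adjusted p = 0.00129), H2-T23 (0.50, adjusted p = 0.00153), B2m (0.33, adjusted p = 0.0433) and Tap1 (0.52, adjusted p = 0.00370, all on the log2 scale). Lung structural markers were higher in the same direction: of 12 tested, edgeR called 2, the claudin genes Cldn18 and Cldn5, with 6 at an unadjusted p under 0.05. DESeq2 called these and Ager and Sftpc, and limma voom these and Ager and Cdh5. The median of the 12 was 1.25 on the log2 scale. How much these cells add to the members' values was not tested beyond the fits with a marker term given below.

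**Figure D1:**
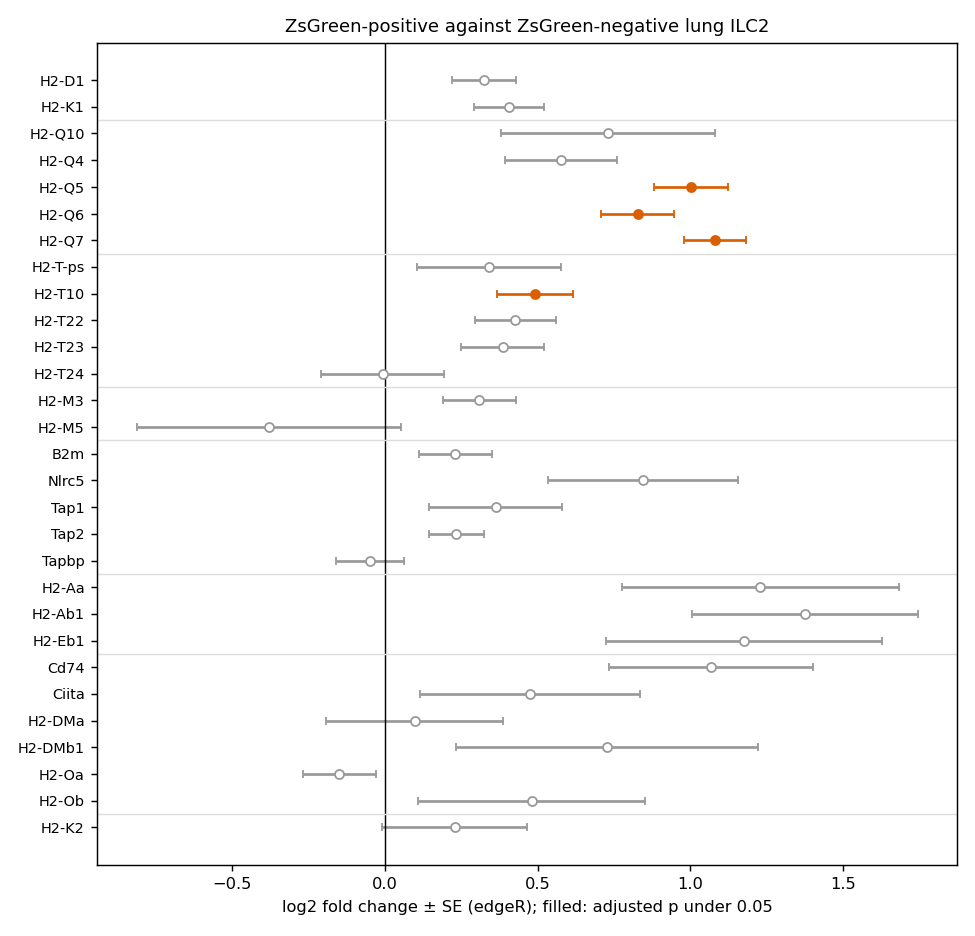
Log2 fold changes of the 29 tested members, ZsGreen-positive over ZsGreen-negative lung ILC2, with standard errors from edgeR (n = 3 and n = 5 libraries); rows are grouped by class, and filled orange points passed an adjusted p under 0.05. The 4 filled points are H2-Q5, H2-Q6, H2-Q7 and H2-T10, while H2-K1 and H2-D1 stand at 0.41 and 0.32 and the class II genes H2-Aa, H2-Ab1 and H2-Eb1 at 1.17 to 1.38 with wide error bars.

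DN3 cells were set against all lung ILC2 to place the family in the thymic T cell precursor of the same series. Most of the family was lower in DN3 cells: the heavy chain genes H2-D1 and H2-K1 fell 15.6-fold and 13.3-fold, H2-Q7 had 15 counts over its 3 libraries, and H2-Q5, H2-Q6 and H2-Aa had 0 counts. Of 31 members tested, 23 fell and 4 rose (edgeR over 15132 genes). Over all genes tested, 78.8% were called, 42.1% lower and 36.7% higher, so calls were common in this comparison. The 4 that rose were H2-Q2, H2-DMa, H2-DMb2 and Tap2, and the 4 not called were Tap1, H2-DMb1, H2-Ob and H2-T-ps. H2-Q2 and H2-DMb2 passed the filter on low counts only through DN3, and the 5 members with 0 counts there only through lung. H2-Q7, Cd74, H2-Eb1, Ciita and the H2-K2 entry ENSMUSG00000121503, with few counts in DN3, also passed it only through lung. The filter thus favoured the direction of these members. The median log2 fold change over the members tested was -2.33, also with the 5 members at 0 counts in DN3 set to their bounds, against -0.094 over all genes. Upper-quartile scaling moved that all-gene median to 0.0076 and left the 4 members that rose. All members together took 0.155% to 0.165% of the counts of a DN3 library, 0.915% to 1.01% in ZsGreen-positive and 0.655% to 0.911% in ZsGreen-negative libraries. In sorted bulk samples, fewer cells that express a gene and less RNA per cell cannot be told apart.

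**Figure D2:**
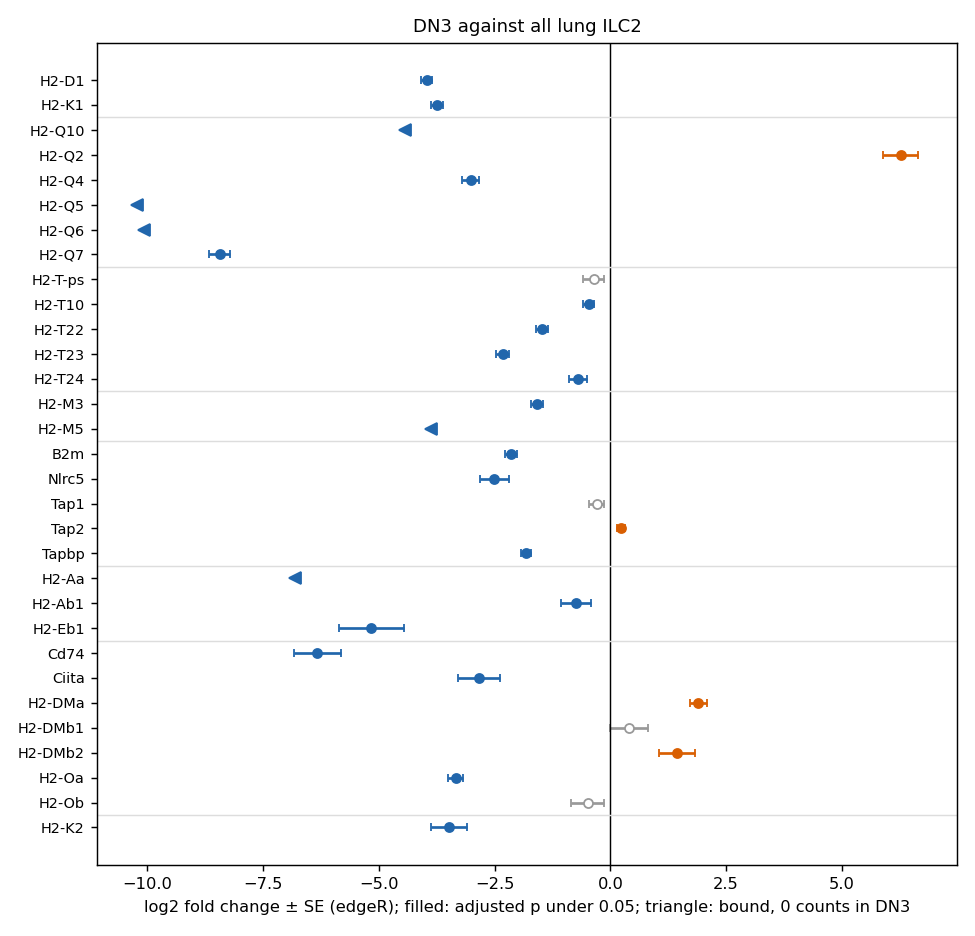
Log2 fold changes of the 31 tested members, DN3 over all lung ILC2, with standard errors from edgeR (n = 3 and n = 8 libraries); filled points passed an adjusted p under 0.05 (blue lower, orange higher), and triangles are bounds for the 5 members with 0 counts in DN3. The points run from bounds near -10 for H2-Q5 and H2-Q6 to 6.27 for H2-Q2, and Tap1 and Tap2 lie close to 0.

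The classical heavy chains fell in DN3 cells, and between the lung groups their call depended on the test. H2-K1 (ENSMUSG00000061232) had 191, 193 and 187 CPM in DN3, 2831, 2933 and 3303 CPM in ZsGreen-positive and 2209.7, 2192, 2115, 2883 and 2049 CPM in ZsGreen-negative libraries. H2-D1 (ENSMUSG00000073411) had 148, 148 and 146 CPM in DN3, 2617, 2569 and 2724 CPM in ZsGreen-positive and 2027, 2064, 2023, 2609 and 1919 CPM in ZsGreen-negative libraries. The DN3 libraries lay far below every lung library for both genes, and the lung groups overlapped only through ZsGreen-negative library 4, which stood above the other 4 of its group. In DN3 against lung the log2 fold change was -3.74 ± 0.12 (SE, edgeR adjusted p = 2.24e-17) for H2-K1 and -3.97 ± 0.12 (SE, edgeR adjusted p = 2.70e-18) for H2-D1. Between the lung groups it was 0.41 ± 0.12 (SE, edgeR adjusted p = 0.0521) for H2-K1 and 0.32 ± 0.11 (SE, edgeR adjusted p = 0.0930) for H2-D1, neither of them called. DESeq2 called both (adjusted p = 0.00938 for H2-K1 and 0.0282 for H2-D1), as did limma voom (adjusted p = 0.0248 for H2-K1 and 0.0411 for H2-D1) and edgeR with no filter on low counts. H2-K1 was also called with upper-quartile factors and with all 11 libraries in 1 fit. Without ZsGreen-negative library 4 both were called, at adjusted p = 0.00360 for H2-K1 and 0.0128 for H2-D1.

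Of 5 Q region genes tested between the lung groups 3 rose, and of 6 tested in DN3 against lung 5 fell and H2-Q2 rose. Over all genes 2.35% rose between the lung groups, and 42.1% fell and 36.7% rose in DN3. H2-Q7 (ENSMUSG00000060550), a Qa-2 gene, had 0.141, 0.645 and 0.935 CPM in DN3, 299, 348 and 379.5 CPM in ZsGreen-positive and 163, 141, 145, 192 and 159.7 CPM in ZsGreen-negative libraries. The groups did not overlap, and the 3 DN3 values rest on 15 counts in all. H2-Q7 passed the filter on low counts only through lung. The log2 fold change between the lung groups was 1.08 ± 0.10 (SE, edgeR adjusted p = 4.44e-06). It kept its call under all 20 alternatives tried, with values of 0.96 to 1.19, including a fit in which H2-Q6 was added to H2-Q7. Within the 2024 batch alone it was 1.01 (adjusted p = 4.01e-05), and the 2025 batch, with 1 library a group, had 379.5 CPM in ZsGreen-positive and 159.7 CPM in ZsGreen-negative ILC2. In DN3 cells the level fell 347-fold, a log2 fold change of -8.44 ± 0.22 (SE, edgeR adjusted p = 1.13e-18).

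H2-Q5 (ENSMUSG00000055413) had 0 counts in DN3, 173, 225 and 235 CPM in ZsGreen-positive and 99.02, 80.9, 118, 119 and 106 CPM in ZsGreen-negative libraries. H2-Q6 (ENSMUSG00000073409), another Qa-2 gene, had 0 counts in DN3, 159, 189 and 188 CPM in ZsGreen-positive and 93.3, 75.7, 106, 121 and 105 CPM in ZsGreen-negative libraries. For both genes every ZsGreen-positive library exceeded every ZsGreen-negative one. The log2 fold changes between the lung groups were 1.00 ± 0.12 (SE, edgeR adjusted p = 0.000215) for H2-Q5 and 0.83 ± 0.12 (SE, edgeR adjusted p = 0.000766) for H2-Q6. In DN3 the levels were at least 1201-fold lower for H2-Q5 and at least 1078-fold lower for H2-Q6, from a floor of 3 counts over the group. Both calls between the lung groups were lost when the summed structural marker level entered the fit, at adjusted p = 0.101 for H2-Q5 and 0.113 for H2-Q6. With that term the log2 fold changes were 0.84 and 0.83 for the same genes, and H2-Q7 was at 1.12 with its call kept (adjusted p = 0.00495).

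H2-Q4 had 43.4, 33.4 and 36.2 CPM in DN3, 327, 434 and 398 CPM in ZsGreen-positive and 233, 226, 253, 375 and 228 CPM in ZsGreen-negative libraries. The lung groups overlapped in ZsGreen-negative library 4, and the log2 fold change between them was 0.58 ± 0.18 (SE, edgeR adjusted p = 0.135). H2-Q10, which encodes a secreted class I molecule of the liver, was low, at 2.90 to 4.12 CPM in ZsGreen-positive and 1.04 to 2.98 CPM in ZsGreen-negative libraries, with 0 counts in DN3. H2-Q2 (ENSMUSG00000091705) ran the other way, with 15.9, 18.9 and 15.5 CPM in DN3, 0 to 0.895 CPM in ZsGreen-positive and 0 to 0.221 CPM in ZsGreen-negative libraries. It was the member with the highest positive log2 fold change in DN3, 6.27 ± 0.38 (SE, edgeR adjusted p = 9.78e-13), and the DN3 libraries stood above all lung libraries. H2-Q2 passed the filter on low counts only through DN3. H2-Q1 and H2-Q3 were too low to be tested.

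**Figure D3:**
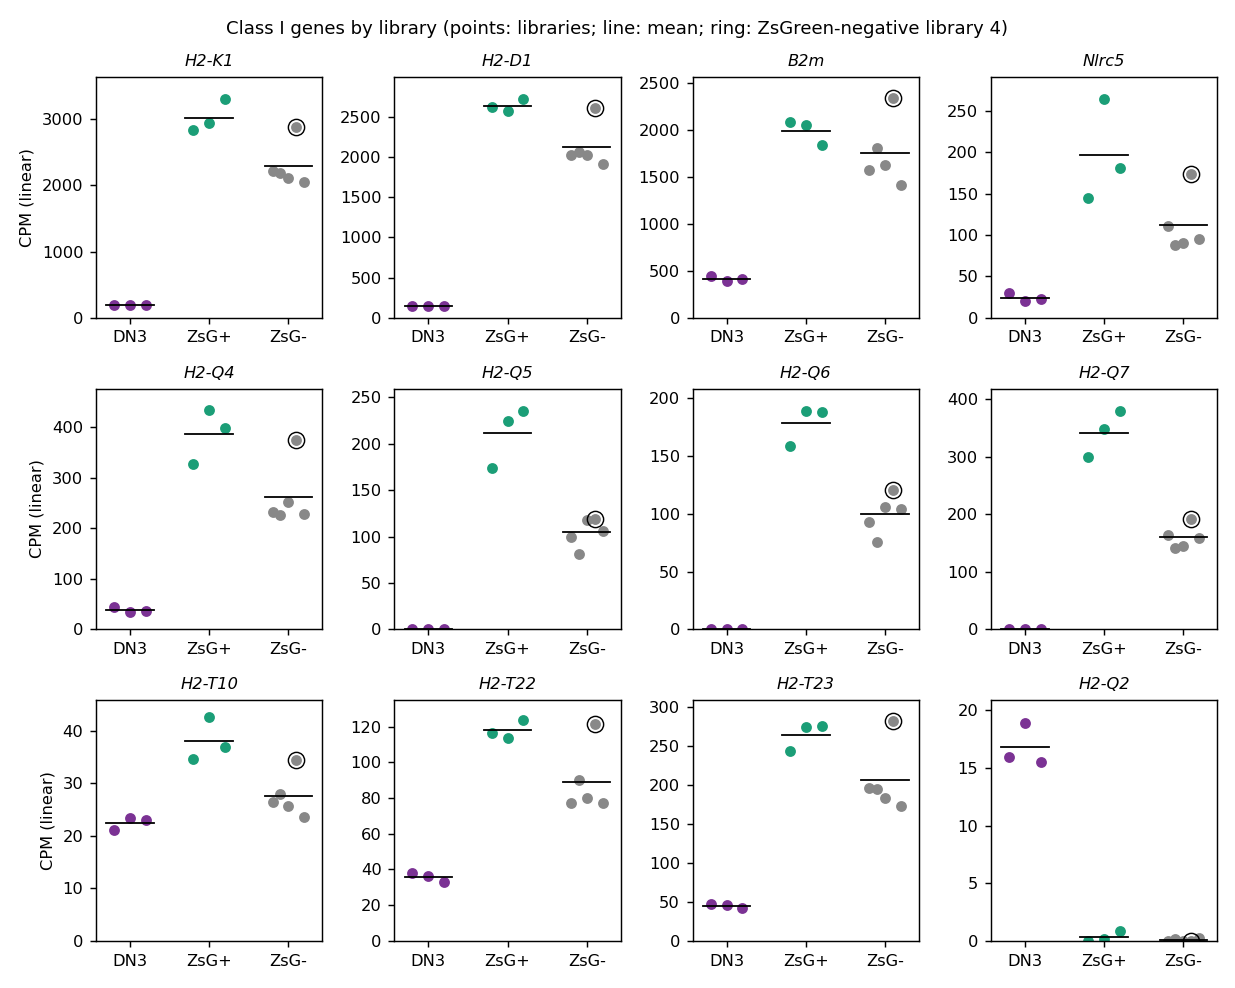
Levels of 12 class I genes in CPM on linear axes, by library, for DN3 (n = 3), ZsGreen-positive (ZsG+, n = 3) and ZsGreen-negative ILC2 (ZsG-, n = 5); points are libraries, lines are group means, and the ring marks ZsGreen-negative library 4. H2-Q5, H2-Q6 and H2-Q7 separate the lung groups, with H2-Q7 at 299 to 379.5 CPM in ZsGreen-positive and 141 to 192 CPM in ZsGreen-negative libraries, while for H2-K1, H2-D1, H2-T22 and H2-T23 the ringed library lies among or above the ZsGreen-positive ones.

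The same genes were set against H2-K1 within each library, which takes out scaling between libraries. Counts of H2-Q7 per 100 counts of H2-K1 were 0.0739, 0.334 and 0.499 in DN3, 10.6, 11.9 and 11.5 in ZsGreen-positive and 7.39, 6.44, 6.88, 6.67 and 7.79 in ZsGreen-negative libraries. ZsGreen-negative library 4, high for H2-K1, was inside the range of its own group here. H2-Q5 per 100 counts of H2-K1 ranged over 6.12 to 7.67 in ZsGreen-positive and 3.69 to 5.56 in ZsGreen-negative libraries, and H2-Q6 over 5.63 to 6.45 and 3.45 to 5.11 in the same order of groups. H2-Q4 overlapped, at 11.5 to 14.8 in ZsGreen-positive and 10.3 to 13.02 in ZsGreen-negative libraries, and was higher relative to H2-K1 in DN3, at 17.3 to 22.8. A ratio shows unequal change and not which of its genes changed, and these ratios were not tested.

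**Figure D4:**
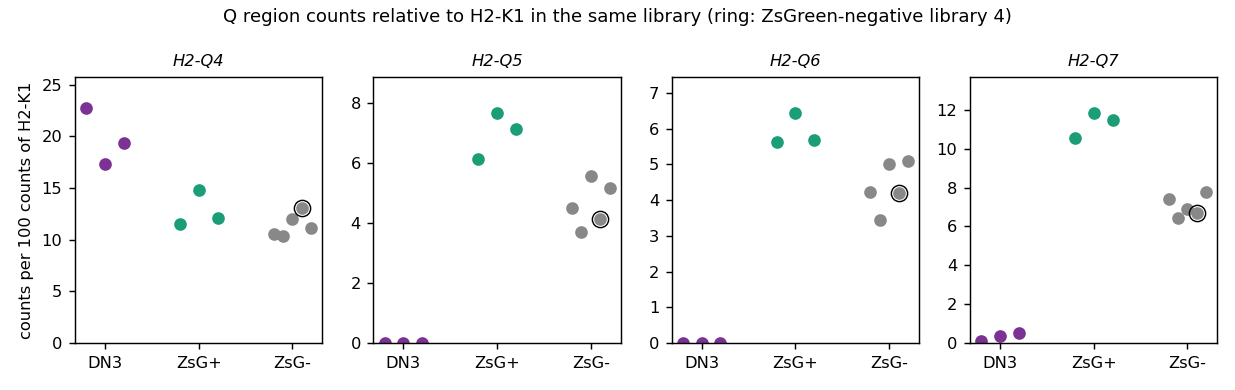
Counts of H2-Q4, H2-Q5, H2-Q6 and H2-Q7 per 100 counts of H2-K1 in the same library, by library, for DN3 (n = 3), ZsGreen-positive (ZsG+, n = 3) and ZsGreen-negative ILC2 (ZsG-, n = 5); the ring marks ZsGreen-negative library 4. For H2-Q7 the ZsGreen-positive libraries lie at 10.6 to 11.9, the ZsGreen-negative ones at 6.44 to 7.79 and the DN3 ones at 0.0739 to 0.499.

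The Q and T region genes resemble each other, and how reads matching several genes were counted is not given in the sources used here. Of all 50-base windows of its GENCODE M21 transcript, H2-Q7 shared 34.9% with transcripts of other genes, 19.3% with H2-Q6 and 15.2% with H2-Q5. H2-Q5 shared 35.4%, H2-Q6 32.0%, H2-Q4 24.3%, H2-D1 14.3% and H2-K1 8.79%. H2-T10 and H2-T22 shared 42.9% and 44.7% of their windows, mostly with each other. Counts among these genes are therefore uncertain, and no gene entry carried the symbol H2-Q8 or H2-Q9. With H2-Q6 and H2-Q7 summed to 1 entry, the sum was called higher in ZsGreen-positive ILC2 (log2 fold change 0.99, adjusted p = 2.28e-05).

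In the T region 1 of 5 genes tested rose between the lung groups, where 2.35% of all genes did, and 4 of 5 fell in DN3, where 42.1% of all genes did. H2-T10 (ENSMUSG00000079491), whose product is recognised by some gamma-delta T cells, had 21.01, 23.3 and 23.02 CPM in DN3, 34.6, 42.5 and 36.8 CPM in ZsGreen-positive and 26.4, 27.9, 25.6, 34.4 and 23.6 CPM in ZsGreen-negative libraries. The lung groups did not overlap, but by a narrow margin, and ZsGreen-negative library 4 was the nearest. The log2 fold change was 0.49 ± 0.12 (SE, edgeR adjusted p = 0.0284) between the lung groups and -0.46 ± 0.12 (SE, edgeR adjusted p = 0.00121) in DN3 against lung. The call between the lung groups was lost in 10 of 20 alternatives, among them the 2024 batch alone (adjusted p = 0.202) and leaving out ZsGreen-negative library 1, 3 or 5 or ZsGreen-positive library 2 or 3. Its adjusted p ran from 0.00700 to 0.627 over the 20. H2-T22, its close relative, had 37.9, 36.4 and 32.8 CPM in DN3, 117, 114 and 124 CPM in ZsGreen-positive and 77.1, 90.01, 80.2, 122 and 77.3 CPM in ZsGreen-negative libraries. H2-T23, the gene of Qa-1 that engages the CD94/NKG2 receptors, had 47.5, 45.9 and 42.1 CPM in DN3, 243, 274 and 276 CPM in ZsGreen-positive and 197, 195, 183, 282 and 174 CPM in ZsGreen-negative libraries. Both were lower in every DN3 than in every lung library, and between the lung groups both overlapped through ZsGreen-negative library 4.

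In DN3 against lung, the log2 fold change was -1.47 ± 0.13 (SE, edgeR adjusted p = 1.48e-09) for H2-T22 and -2.33 ± 0.13 (SE, edgeR adjusted p = 8.93e-12) for H2-T23. H2-M3, which presents formylated bacterial peptides, had 10.4, 8.60 and 9.35 CPM in DN3, 30.00, 36.05 and 30.1 CPM in ZsGreen-positive and 26.7, 24.5, 24.6, 31.1 and 23.98 CPM in ZsGreen-negative libraries. It fell in DN3, with a log2 fold change of -1.58 ± 0.13 (SE, edgeR adjusted p = 2.73e-10), and the lung groups overlapped. H2-T24 fell by less, with a log2 fold change of -0.70 ± 0.20 (SE, edgeR adjusted p = 0.00357) in DN3, and stood at -0.0082 between the lung groups. H2-M5 was at 0.869 to 2.33 CPM in ZsGreen-positive and 1.07 to 2.92 CPM in ZsGreen-negative libraries and had 0 counts in DN3, at least 14.7-fold lower. The other 12 M region entries and 5 T region entries were not tested, and none of them exceeded 1 CPM in any library.

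The partners of class I did not all move alike in DN3 cells, where 3 of 5 fell, Tap2 rose and Tap1 was not called, a share near the 78.8% called over all genes. B2m (ENSMUSG00000060802), the light chain of every class I molecule, had 449, 388 and 417 CPM in DN3, 2089, 2051 and 1845 CPM in ZsGreen-positive and 1579, 1814, 1633, 2346 and 1416 CPM in ZsGreen-negative libraries. DN3 libraries lay below all lung libraries, and the lung groups overlapped. B2m fell by 2.14 ± 0.13 on the log2 scale (SE, edgeR adjusted p = 2.72e-12), a smaller fall than those of H2-K1 and H2-D1, and counts of B2m per 100 counts of H2-K1 were 201 to 236 in DN3, 55.8 to 73.8 in ZsGreen-positive and 69.1 to 82.7 in ZsGreen-negative libraries. Tapbp (ENSMUSG00000024308), or tapasin, which holds empty class I at the peptide transporter, had 81.3, 76.3 and 78.3 CPM in DN3, 272, 274 and 266 CPM in ZsGreen-positive and 258, 286, 253, 370.1 and 255 CPM in ZsGreen-negative libraries. It fell in DN3, with a log2 fold change of -1.83 ± 0.11 (SE, edgeR adjusted p = 8.52e-13).

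The chains of the peptide transporter lay nearer to their lung levels. Tap1 (ENSMUSG00000037321) had 117, 106 and 116 CPM in DN3, 145, 169 and 167 CPM in ZsGreen-positive and 114, 128, 97.5, 189 and 107 CPM in ZsGreen-negative libraries, and DN3 values lay among the lung ones. Its log2 fold change in DN3 was -0.30 ± 0.17 (SE, edgeR adjusted p = 0.120), not called. It was called lower against ZsGreen-positive ILC2 alone (-0.51, adjusted p = 0.0334), with no filter on low counts (adjusted p = 0.00170), and without ZsGreen-negative library 4 (adjusted p = 0.0309) or library 3 (adjusted p = 0.0375). Tap2 (ENSMUSG00000024339) had 135, 142 and 126 CPM in DN3, 118, 128 and 133 CPM in ZsGreen-positive and 105, 109, 95.03, 125 and 104 CPM in ZsGreen-negative libraries. It rose slightly in DN3, by 0.23 ± 0.08 (SE, edgeR adjusted p = 0.0115) on the log2 scale, with overlap through ZsGreen-positive libraries. That call was lost against ZsGreen-positive ILC2 alone (adjusted p = 0.426) and without DN3 library 2 (adjusted p = 0.0810).

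Nlrc5 (ENSMUSG00000074151), the class I activator, had 30.3, 20.6 and 22.2 CPM in DN3, 144, 265 and 181 CPM in ZsGreen-positive and 111, 88.4, 90.9, 174 and 95.3 CPM in ZsGreen-negative libraries. It fell in DN3 with a log2 fold change of -2.51 ± 0.31 (SE, edgeR adjusted p = 5.10e-05). Between the lung groups it was 0.85 ± 0.31 (SE, edgeR adjusted p = 0.249), with ZsGreen-positive library 2 the highest and overlap through ZsGreen-negative library 4. None of the 5 class I partners was called between the lung groups by edgeR, where 2 had an unadjusted p under 0.05, nor by DESeq2 or limma voom.

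Levels of different genes were compared per kilobase of transcript. In ZsGreen-positive ILC2 the order was B2m at 2319.6 ± 153, H2-K1 at 1867 ± 153, H2-D1 at 1254 ± 37.7, H2-Q7 at 225 ± 26.5, H2-Q4 at 215 ± 30.5, H2-Q5 at 183 ± 28.7 and H2-T23 at 179.6 ± 12.4 CPM per kilobase (SD, n = 3). H2-Q7 and H2-Q4 were within each other's SD, as were H2-Q5 and H2-T23. In ZsGreen-negative ILC2 the first genes were the same 3, but H2-Q4 (147 ± 35.5) and H2-T23 (140.1 ± 29.5) came before H2-Q7 (105 ± 13.2 CPM per kilobase, SD, n = 5). In DN3 the order after B2m (486 ± 35.5), H2-K1 (118 ± 1.91) and H2-D1 (70.1 ± 0.386) went on with Tap2 (38.97 ± 2.36), Tap1 (38.3 ± 1.99) and H2-T23 (30.7 ± 1.90 CPM per kilobase, SD, n = 3). Tap1 and Tap2 were within each other's SD there.

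Class II genes were read in lung libraries at low levels that spread widely among ZsGreen-positive libraries. H2-Aa (ENSMUSG00000036594), an alpha chain, had 0 counts in DN3, 9.56, 19.96 and 34.7 CPM in ZsGreen-positive and 8.11, 5.01, 11.9, 11.8 and 6.79 CPM in ZsGreen-negative libraries. H2-Ab1 (ENSMUSG00000073421), its beta chain, had 6.77, 6.24 and 7.01 CPM in DN3, 9.27, 20.3 and 32.9 CPM in ZsGreen-positive and 8.11, 5.37, 10.5, 8.44 and 6.20 CPM in ZsGreen-negative libraries. ZsGreen-positive libraries 2 and 3 exceeded all ZsGreen-negative ones for both genes, and ZsGreen-positive library 1 lay among them. H2-Eb1 (ENSMUSG00000060586), a beta chain of the E molecule, had 0.141, 0.108 and 0.468 CPM in DN3, 6.81, 15.7 and 24.6 CPM in ZsGreen-positive and 8.11, 2.68, 9.75, 6.95 and 5.83 CPM in ZsGreen-negative libraries. H2-Ea, the alpha chain of that molecule, had 0 counts in all 11 libraries. Cd74 (ENSMUSG00000024610), the invariant chain that guards the class II groove, had 0.987, 0.538 and 0.818 CPM in DN3, 55.6, 97.6 and 153 CPM in ZsGreen-positive and 46.6, 43.1, 53.4, 52.3 and 37.5 CPM in ZsGreen-negative libraries. The 3 ZsGreen-positive values of Cd74 all lay above the 5 ZsGreen-negative ones. Cd74 and the 4 called genes were the 5 members whose lung groups lay apart in this way, where 5.20% of all genes tested did so, and 0 members lay apart in the other direction, where 4.98% did.

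Between the lung groups the log2 fold change was 1.23 ± 0.45 (SE, edgeR adjusted p = 0.221) for H2-Aa and 1.38 ± 0.37 (SE, edgeR adjusted p = 0.0767) for H2-Ab1. It was 1.17 ± 0.45 (SE, edgeR adjusted p = 0.229) for H2-Eb1 and 1.07 ± 0.33 (SE, edgeR adjusted p = 0.178) for Cd74. None was called by edgeR or limma voom, whereas DESeq2 called H2-Ab1 and Cd74. Without ZsGreen-positive library 1 all 4 were called, with values of 1.66 (adjusted p = 0.0173), 1.81 (adjusted p = 0.00121), 1.59 (adjusted p = 0.0237) and 1.43 (adjusted p = 0.00147) in the same order of genes. H2-Ab1 was also called without ZsGreen-negative library 3. Ciita (ENSMUSG00000022504), the class II activator, had 0.564, 0.538 and 0.468 CPM in DN3, 2.90, 7.76 and 3.88 CPM in ZsGreen-positive and 4.49, 1.79, 4.14, 2.48 and 3.91 CPM in ZsGreen-negative libraries. It was low and overlapping between the lung groups.

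Markers of cells known for class II moved with these values. The 6 B cell markers summed to 91.9 to 158 CPM in ZsGreen-positive and 84.6 to 106 CPM in ZsGreen-negative libraries, most of it from Ighm. The 13 macrophage and dendritic cell markers summed to 120.4 to 252 CPM in ZsGreen-positive and 63.01 to 173 CPM in ZsGreen-negative libraries, mostly from Lyz2. Of their 7 tested genes edgeR called 0 (2 at an unadjusted p under 0.05), DESeq2 called Lyz2 and limma voom called 0. Each of these 19 markers had counts in at least 1 lung library. Their part in the class II levels was not tested beyond the fits that follow. With the summed level of both lists as a term, the log2 fold changes were 0.061 for H2-Aa, 0.26 for H2-Ab1, -0.033 for H2-Eb1 and 0.32 for Cd74. With the structural marker sum as a term they were 0.25, 0.32, 0.082 and 0.34 in the same order. H2-Q7 kept 0.96 and H2-Q5 0.66 with the first of these terms, both still called, and H2-Q6 had 0.60 (adjusted p = 0.0824).

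In DN3 against lung, class II chains fell. H2-Aa was at least 112-fold lower. H2-Aa, Cd74, H2-Eb1 and Ciita passed the filter on low counts only through lung. Cd74 fell with a log2 fold change of -6.33 ± 0.51 (SE, edgeR adjusted p = 1.13e-06), H2-Eb1 with -5.17 ± 0.70 (SE, edgeR adjusted p = 1.17e-05) and Ciita with -2.84 ± 0.45 (SE, edgeR adjusted p = 5.21e-06). H2-Ab1 fell by 0.74 ± 0.32 on the log2 scale (SE, edgeR adjusted p = 0.0498). DN3 libraries held 6.24 to 7.01 CPM, inside the range of the ZsGreen-negative ones. The call was lost in 10 of 20 alternatives, with adjusted p from 0.00016 to 0.663. Among these were the comparison with ZsGreen-negative ILC2 alone, at -0.18, and leaving out any 1 DN3 library, ZsGreen-negative library 4 or ZsGreen-positive library 2 or 3. Against ZsGreen-positive ILC2 alone the value was -1.68 (adjusted p = 0.000718). H2-Aa per 100 counts of H2-Ab1 was 0 in DN3, 98.2 to 105 in ZsGreen-positive and 93.3 to 139 in ZsGreen-negative libraries.

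Of 7 class II partners tested in DN3, 3 fell (Cd74, Ciita and H2-Oa) and 2 rose (H2-DMa and H2-DMb2), shares near the 42.1% lower and 36.7% higher over all genes. H2-DMa (ENSMUSG00000037649), a chain of the peptide editor DM, had 19.03, 19.6 and 19.2 CPM in DN3, 3.91, 6.84 and 5.49 CPM in ZsGreen-positive and 5.52, 5.37, 2.19, 5.30 and 5.75 CPM in ZsGreen-negative libraries. All DN3 libraries lay above all lung libraries, 1 of 3 members to do so with H2-Q2 and H2-DMb2, where 32.7% of all genes tested lay so, and the log2 fold change was 1.90 ± 0.18 (SE, edgeR adjusted p = 2.99e-09). Of these 3 members, H2-Q2 and H2-DMb2 passed the filter on low counts only through DN3. H2-DMb2, a partner chain of DM, had 3.10, 2.80 and 2.92 CPM in DN3, 0.290 to 2.22 CPM in ZsGreen-positive and 0.487 to 1.25 CPM in ZsGreen-negative libraries, and rose in DN3 with a log2 fold change of 1.44 ± 0.39 (SE, edgeR adjusted p = 0.00189). It was not called against ZsGreen-positive ILC2 alone (adjusted p = 0.0858). H2-DMb1, which shares 27.2% of its 50-base windows with H2-DMb2, was not called in either comparison. H2-Oa (ENSMUSG00000024334), a chain of the DM inhibitor DO, had 2.82, 3.76 and 2.81 CPM in DN3, 27.5, 30.3 and 30.7 CPM in ZsGreen-positive and 31.7, 35.4, 36.3, 37.6 and 27.9 CPM in ZsGreen-negative libraries. It fell in DN3 with a log2 fold change of -3.34 ± 0.16 (SE, edgeR adjusted p = 1.48e-14), while the lung groups overlapped at a log2 fold change of -0.15. H2-Ob, the other chain of DO, was low in all groups and not called.

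**Figure D5:**
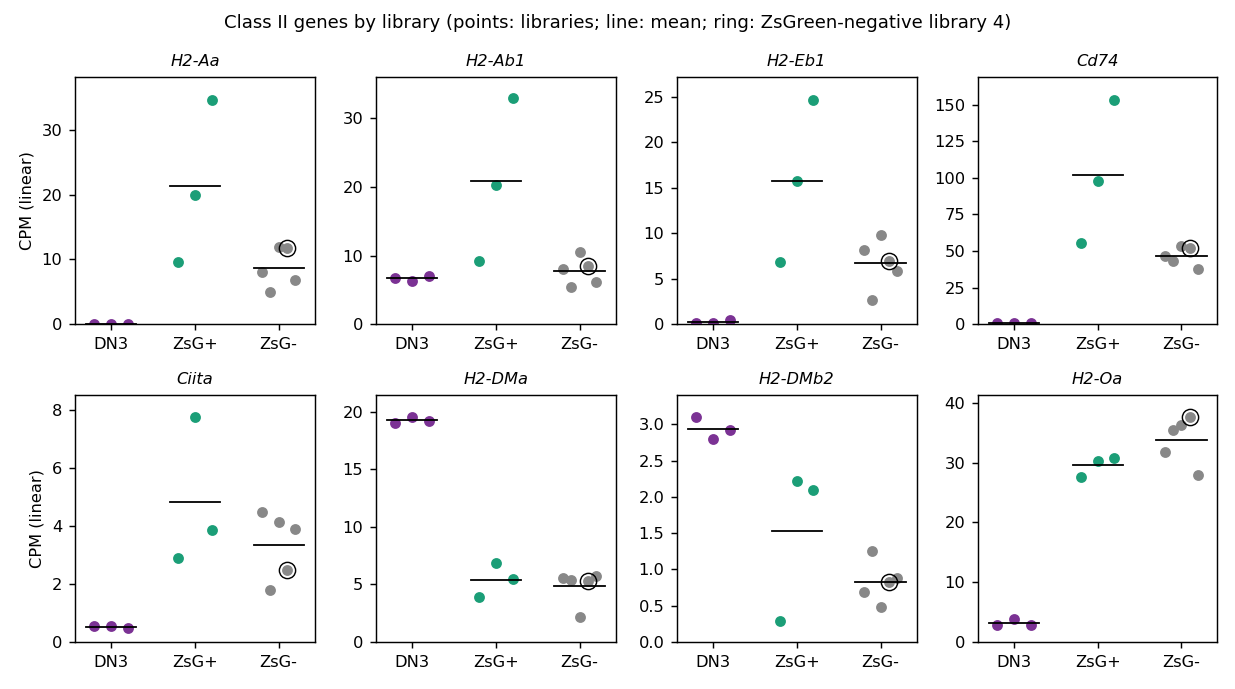
Levels of 8 class II genes in CPM on linear axes, by library, for DN3 (n = 3), ZsGreen-positive (ZsG+, n = 3) and ZsGreen-negative ILC2 (ZsG-, n = 5); points are libraries, lines are group means, and the ring marks ZsGreen-negative library 4. H2-Aa, H2-Ab1, H2-Eb1 and Cd74 spread several-fold among the 3 ZsGreen-positive libraries, whereas H2-DMa and H2-DMb2 are highest in DN3 and H2-Oa is at 27.5 to 37.6 CPM in lung.

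Each DN3 comparison was also made with 1 lung group. Against ZsGreen-positive ILC2 alone, 25 members fell and 2 rose in DN3, where 40.3% and 34.8% of all genes tested did so. Against ZsGreen-negative ILC2 alone 22 fell and 4 rose, where 41.2% and 35.5% of all genes did so. These share the DN3 libraries and are not independent. H2-Q7 had -9.12 against ZsGreen-positive and -8.03 against ZsGreen-negative ILC2 on the log2 scale, H2-K1 -3.99 and -3.59, and H2-Q2 4.99 and 7.04, in the same order of groups. The entry H2-K2 (ENSMUSG00000121503) fell as well, with 1.41, 0.215 and 0.818 CPM in DN3, 5.80 to 13.2 CPM in ZsGreen-positive and 6.21 to 9.75 CPM in ZsGreen-negative libraries. This entry passed the filter on low counts only through lung.

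The wider pathways gave no call between the lung groups by edgeR. Of 15 class I loading genes, 18 class II pathway genes and 23 regulators and interferon signalling genes tested, 0 rose and 0 fell, with 2, 1 and 4 genes at an unadjusted p under 0.05 in those lists. DESeq2 called 1 of them, Cd74, and limma voom 0. In DN3 against lung, 8 of 15 class I loading genes fell and 4 rose, near the 78.8% called over all genes (42.1% lower and 36.7% higher). Besides Tapbp and B2m, those of smallest p were the chaperone Hspa5, at 283 ± 6.93 CPM in DN3 and 666 ± 60.3 CPM in lung (SD, n = 3 and n = 8), and the disulfide isomerase Pdia3, at 315 ± 14.9 and 703 ± 69.3 CPM in DN3 and lung. The immunoproteasome subunits Psmb8 and Psmb9, chosen after their values were seen, rose in DN3, by 0.86 ± 0.14 (SE, edgeR adjusted p = 8.66e-05) and 0.62 ± 0.20 (SE, edgeR adjusted p = 0.0136) on the log2 scale. The median of this list was -0.44 in DN3 against lung, beside -0.094 over all genes.

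Of 19 class II pathway genes tested in DN3 against lung, 10 fell and 6 rose, near the 78.8% called over all genes (42.1% lower and 36.7% higher). The median log2 fold change was -0.49. Besides H2-Oa, the smallest p belonged to the lysosomal proteases Lgmn and Ctss, which trim the invariant chain, with log2 fold changes of -3.71 ± 0.21 (SE, edgeR adjusted p = 2.53e-13) and -7.39 ± 0.35 (SE, edgeR adjusted p = 5.17e-12), and to Nfya, a subunit of the factor that binds the CCAAT box of class II promoters, which rose by 1.02 ± 0.066 (SE, edgeR adjusted p = 3.19e-12) on the log2 scale. Ctss had 8 counts over the DN3 libraries and passed the filter on low counts only through lung. Of 23 regulators, 15 fell and 3 rose in DN3, with a median log2 fold change of -0.67. The share called was also near 78.8%, but more fell and fewer rose than the 42.1% and 36.7% over all genes. The NF-kB genes Relb and Nfkb1 stood at 2.31 ± 0.736 and 145 ± 0.944 CPM in DN3, against 128 ± 8.15 and 1824 ± 220.2 CPM in lung (SD, n = 3 and n = 8). The interferon-gamma receptor chain Ifngr2 stood at 12.2 ± 0.341 CPM in DN3 and 125 ± 10.5 CPM in lung. All of these were called lower (largest of the 3 edgeR adjusted p = 1.13e-17). Ezh2, the histone methyltransferase of Polycomb, was called higher, at 279 ± 6.85 CPM in DN3 and 87.6 ± 6.91 CPM in lung, a log2 fold change of 1.67 ± 0.072 (SE, edgeR adjusted p = 2.27e-15).

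The remaining members were at or near the limit of detection. H2-Ea, H2-M1, H2-M9, H2-M10.1, H2-M10.3, H2-M10.4, H2-M10.5, H2-M10.6, H2-M11 and H2-Pb had 0 counts in all 11 libraries, which allows up to 3 counts in each. H2-Bl, H2-M10.2, H2-M10.5-ps1, H2-Pa, H2-Q3 and H2-T27 had between 1 and 3 counts in their highest library. H2-Eb2, H2-M2, H2-M6-ps, H2-Q1, H2-T3, H2-T25, H2-T26 and the second H2-K2 entry (ENSMUSG00000067203) exceeded 3 counts in some library but not the filter on low counts, and H2-Q2 and H2-DMb2 passed it through DN3 and were tested there alone.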

How the data were processed

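RNA from sorted cells was extracted with the PicoPure kit and sequenced after a Watchmaker Genomics mRNA library, per the labels' protocols. The values used are raw counts per gene, as the authors deposited them. The submitters' processing notes name the build GRCm39 and DESeq2. What aligner, counter and strand setting were used is not given in the sources used here. Groups, replicates and batches come from the labels. The members and lists were chosen with earlier results of these data known.

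Genes were tested with edgeR 4.0.16 in R 4.3.3 (TMM, robust quasi-likelihood, filterByExpr minimum count 10). Adjusted p-values are Benjamini-Hochberg over all genes tested, and the threshold was 0.05. The lung fit used 8 libraries with batch as a term, and the DN3 fit all 11 libraries with no batch term, DN3 minus the mean of the lung libraries. Alternatives were DESeq2 1.42.0, limma 3.58.1 (voom), other scalings, no filter, marker terms, single batches, a replicate block and each library left out. No replicate pair agreed within counting noise (chi-square per degree of freedom 1.77 to 15.3 over 16 pairs). CPM per kilobase used the longest coding transcript in GENCODE M21, for lengths alone. Given by library were H2-Q7, H2-K1, H2-D1, B2m, Tap1, Tap2, Tapbp, Nlrc5, H2-Aa, H2-Ab1, H2-Eb1, Cd74, Ciita, members called between the lung groups and the 12 of smallest p in DN3, and 4 genes a list. H2-Q4, H2-DMa and H2-DMb2 were given by library after their values were seen. Single values of some listed genes are not reported here. H2-K2 stands for 2 entries and is named with its ID.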

Additional observations from a re-analysis of the deposited data

Results flagged for a closer look

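ZsGreen-negative library 4 was far above the other 4 ZsGreen-negative libraries for 5 of the members given by library. H2-D1 had 2609 CPM there, with the next library at 2064 CPM. H2-K1 had 2883 CPM, with the next at 2209.7 CPM. H2-T23 had 282 CPM, with the next at 197 CPM. Nlrc5 had 174 CPM, with the next at 111 CPM, and Tapbp had 370.1 CPM, with the next at 286 CPM. The gap to the next library, as a share of the range of all 5, was 0.790 for H2-D1, 0.807 for H2-K1, 0.788 for H2-T23, 0.741 for Nlrc5 and 0.713 for Tapbp, above the critical value of 0.71 for groups of 5. Chance flags about 1 in 20 groups. Over the 29 members tested the same held on the high side of this library for 6 (20.7%), against 0.879% of all 13771 genes tested. The interferon-responsive genes Irf7 and Irf1 were also highest there among ZsGreen-negative libraries, at 42.4 and 157 CPM, while its structural marker sum, 376 CPM, was the lowest of the 5. The part of any of these in the result was not tested.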

How the results depend on the processing

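The count of members higher in ZsGreen-positive ILC2 was 4 and depended on the fit. It was 11 with no filter on low counts, 8 with the DESeq2 test, 7 with limma voom, 7 with all 11 libraries in 1 fit, 9 with a replicate block, 2 with the macrophage, dendritic and B cell marker term and 1, H2-Q7, with the structural marker term. The block fit held no batch term. ZsGreen-negative libraries 4 and 5 have no ZsGreen-positive library of their number, so they did not inform its contrast. Its replicate 3 set a ZsGreen-positive library of 2025 against a ZsGreen-negative one of 2024. The cause of the differences between fits was not tested. Over all genes 323 were higher and 300 lower in the fit reported, 14 and 33 with the structural term, 48 and 122 with the other marker term, 130 and 103 with the block, 145 and 153 in the 2024 batch alone, 621 and 460 with no filter and 580 and 430 with limma voom. They were 388 and 352 with DESeq2 and 420 and 319 with all 11 libraries. Without ZsGreen-negative library 4 they were 293 and 295, and without ZsGreen-positive library 1 they were 293 and 211. Leaving out 1 library gave 3 to 11, with 11 when ZsGreen-negative library 4 was left out and 8 when ZsGreen-positive library 1 was. Members lower were 0 under all 20 alternatives. In DN3 against lung, 2 members were higher against ZsGreen-positive ILC2 alone. Leaving out 1 library gave 3 to 4 higher, against 4 reported, and 22 to 24 lower, against 23 reported. Of the lung log2 fold changes that were not called, that of Ciita turned to -0.21 with the macrophage, dendritic and B cell term and ran from -0.081 (without ZsGreen-positive library 2) to 0.74 with 1 library left out. H2-Eb1 turned to -0.033 with the same term. Tapbp turned to 0.035 with the replicate block and 0.14 with the structural term, and ran from -0.097 to 0.045 (without ZsGreen-negative library 4) with 1 library left out. Of 818 single-gene alternatives, 750 kept direction and side of the threshold, 25 lost a call, 37 gained one and 6 changed sign. Replicate numbers come from the labels, and deviations of same-numbered ZsGreen-positive and ZsGreen-negative libraries correlated at 0.078, -0.138 and -0.048. Each ZsGreen-positive library correlated best with a ZsGreen-negative one of another number. These were library 1 with 2 (0.165), library 2 with 3 (0.195) and library 3 with 5 (0.162). Whether those libraries are paired was not tested, and no fit used such pairs. Counting noise limits Ciita, H2-DMb2 and the members under 1 CPM.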

Other observations

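Beyond the members, 67 of 70 listed genes of the H2 region on chromosome 17 were in the table, 62 of them tested and 3 of them (Tap1, Tap2 and Tapbp) members. In DN3 against lung 32 fell and 21 rose, where 78.8% of all genes were called, with a median log2 fold change of -0.27 beside -0.094 over all genes, and the members' median was -2.33. Those of smallest p were Ppp1r18, a phosphatase regulator, at 33.5 ± 2.88 CPM in DN3 and 290.5 ± 23.2 CPM in lung (SD, n = 3 and n = 8), and Trim26, a ubiquitin ligase gene, at 15.1 ± 2.16 CPM in DN3 and 155 ± 8.89 CPM in lung. Ltb, the gene of lymphotoxin beta, stood at 19.9 ± 1.15 CPM in DN3 and 353 ± 48.4 CPM in lung, and Kifc1, a mitotic kinesin gene, at 86.9 ± 3.03 CPM in DN3 and 16.4 ± 2.82 CPM in lung. Between the lung groups edgeR called 0 of the 62 (9 at an unadjusted p under 0.05), DESeq2 called 1, Ager, and limma voom 2, Ager and C2.

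Of 7 class I-like genes without an H2 name that were tested in DN3 against lung, 5 rose and 2 fell, with a median log2 fold change of 0.39. Over all genes 36.7% rose and 42.1% fell. Cd1d1, the lipid-presenting CD1d that NKT cells read, had 33.3, 36.9 and 38.9 CPM in DN3, 14.3, 15.7 and 14.5 CPM in ZsGreen-positive and 14.5, 17.9, 21.7, 20.7 and 15.4 CPM in ZsGreen-negative libraries. Its log2 fold change in DN3 was 1.13 ± 0.12 (SE, edgeR adjusted p = 1.12e-08), and that of the related Cd1d2 was 4.17 ± 0.36 (SE, edgeR adjusted p = 4.44e-10). Cd1d2 passed the filter on low counts only through DN3, at 6.06, 5.59 and 5.61 CPM there. Fcgrt, the neonatal Fc receptor chain, had a log2 fold change of -2.82 ± 0.61 (SE, edgeR adjusted p = 0.000201), and Procr had 0 counts in DN3. Both passed the filter on low counts only through lung, and Fcgrt had 9 counts over the DN3 libraries. A further list held receptors of MHC or MHC-like molecules and relatives of such receptors, not all of which are known to bind MHC. Among its 8 tested genes, 4 rose and 3 fell in DN3, a share called near the 78.8% of all genes. Cd8b1, a chain of the CD8 coreceptor, was low, at 4.09, 4.41 and 4.91 CPM in DN3 and 0.146 ± 0.198 CPM in lung (SD, n = 8). Its log2 fold change was 5.20 ± 0.48 (SE, edgeR adjusted p = 7.00e-10). Cd8b1, Cd4 and Cd8a passed the filter on low counts only through DN3. The inhibitory receptor gene Lilrb4a had 0.282, 0.215 and 0.234 CPM in DN3 and averaged 109.7 ± 22.1 CPM in lung (SD, n = 8). Klrk1, the gene of NKG2D, had 0 counts in DN3. Lilrb4a and Klrk1 passed the filter on low counts only through lung. Between the lung groups edgeR, DESeq2 and limma voom called 0 genes of either list, with 1 class I-like gene and 2 receptors at an unadjusted p under 0.05 by edgeR.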
